A study of Mus musculus with 2 samples.

Results

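Spink5, which encodes the serine protease inhibitor LEKTI, was described with 7 kallikrein genes, Klk1, Klk5, Klk6, Klk7, Klk8, Klk10 and Klk14, and with the genes of the membrane-anchored proteases matriptase (St14) and prostasin (Prss8). The 10 genes were taken by symbol from the 40879 gene symbols counted in the intestine of WT and ERAP1+/- mice. They were chosen from genes whose read counts in these libraries were already known, Spink5 because it was among the genes with the lowest ERAP1+/- level relative to WT, and all values of the 10 genes are therefore given as a description with no test. All 10 symbols had at least 10 reads in 1 library or both, and 7 of them passed a level of 4 on the log2(CPM + 1) scale, where CPM sets each read count against the adjusted total of its library.

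The skin sheds its surface cells by cutting the protein bridges between them, a process called desquamation. Kallikrein 5, kallikrein 7 and kallikrein 14 are secreted serine proteases that cut these bridges, and kallikrein 5 also activates other kallikreins, while fragments of LEKTI bind the same proteases and hold them in check. Matriptase and prostasin act at the surface of many epithelia, that of the intestine included, where they activate other proteases and shape cell junctions and sodium uptake, and tissue kallikrein (Klk1) is best known for releasing kinins, peptides that widen blood vessels.

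Each genotype was measured in 1 library, made from intestinal RNA pooled from 3 mice, so no difference has a replicate check and no p-value is given. The mice had a C57BL/6 background, were 8 weeks old at the start and were the arm that drank plain water for 28 days, without dextran sulfate sodium or sulfasalazine. WT mice carried unaltered Erap1, the gene of an aminopeptidase of the endoplasmic reticulum that trims peptides for antigen presentation. ERAP1+/- mice carried an allele in which Cre recombinase had removed exons 6 and 7, and the source of the Cre strain is not given in the sources used here. The methods call the mice of both genotypes germ-free and also place them in a specific pathogen-free facility. Libraries were sequenced from the 3′ ends of transcripts, so that a read stands for a transcript end and does not scale with transcript length.

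Counted reads numbered 8114826 in WT and 8907515 in the library labelled ERAP1+/-. Erap1 had 229 reads in WT and 2 in the library labelled ERAP1+/-, where its level was 0.730% of WT (95% interval 0.0878% to 2.67%). Reads from the 3′ end lie outside the deleted exons and do not measure the deletion itself. The level is low for a label of 1 intact allele, but no heterozygous reference was measured and the genotype was not tested. The group is therefore named by its label throughout. Xist, an RNA of the inactive X chromosome, had 1635 and 6451 reads, and the Y-linked genes Ddx3y, Eif2s3y, Kdm5d and Uty had 319, 111, 72 and 110 reads in WT and 29, 1, 5 and 11 in the library labelled ERAP1+/-. The part of the sex of the pooled mice in the results was not tested. All 12 colon epithelium markers had at least 10 reads, and their summed level was 11545 CPM in WT and 11273 CPM in the library labelled ERAP1+/-. The near-equal sums hide differences by gene. Muc2 alone had 1547 CPM in WT and 3541 CPM in the library labelled ERAP1+/-, while 8 of the 12 markers were lower there (median log2 difference -0.34). Intervals are exact 95% intervals of counting error only and take each read as independent. PCR reads without molecular identifiers are not independent molecules, so the intervals can be too narrow. Where a library had no read of a gene, the limit used was 3 reads, which is 0.386 CPM in WT and 0.322 CPM in the library labelled ERAP1+/-.

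Of the 10 genes, Spink5 and all 6 kallikreins from Klk5 to Klk14 were lower in the library labelled ERAP1+/-, Klk1 was higher, and St14 and Prss8 lay within 2-fold of WT. Spink5, Klk7, Klk10 and Klk14 were more than 2-fold lower at a log2 level of at least 4, and Klk1 was more than 2-fold higher. Of the 8013 genes at that level, 428 (5.34%) differed more than 2-fold, 317 (3.96%) lower and 111 (1.39%) higher. Scaling by the total count alone gave 248 lower and 166 higher genes, and left these 4 genes lower and 1 higher. Klk5, Klk6 and Klk8 did not reach that level. With at least 10 reads in 1 library in its place, 7 of the 10 genes were more than 2-fold lower and 1 was higher, beside 908 lower (5.92%) and 482 higher (3.14%) of 15334 genes (9.06% in both directions). The median log2 difference of the 10 genes was -3.12, or -2.91 with counts of 0 set at 3 reads, and that of all genes with at least 10 reads over both libraries was 0.00. Because the choice of the genes used this difference, nothing is read from these counts.

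**Figure D1:**
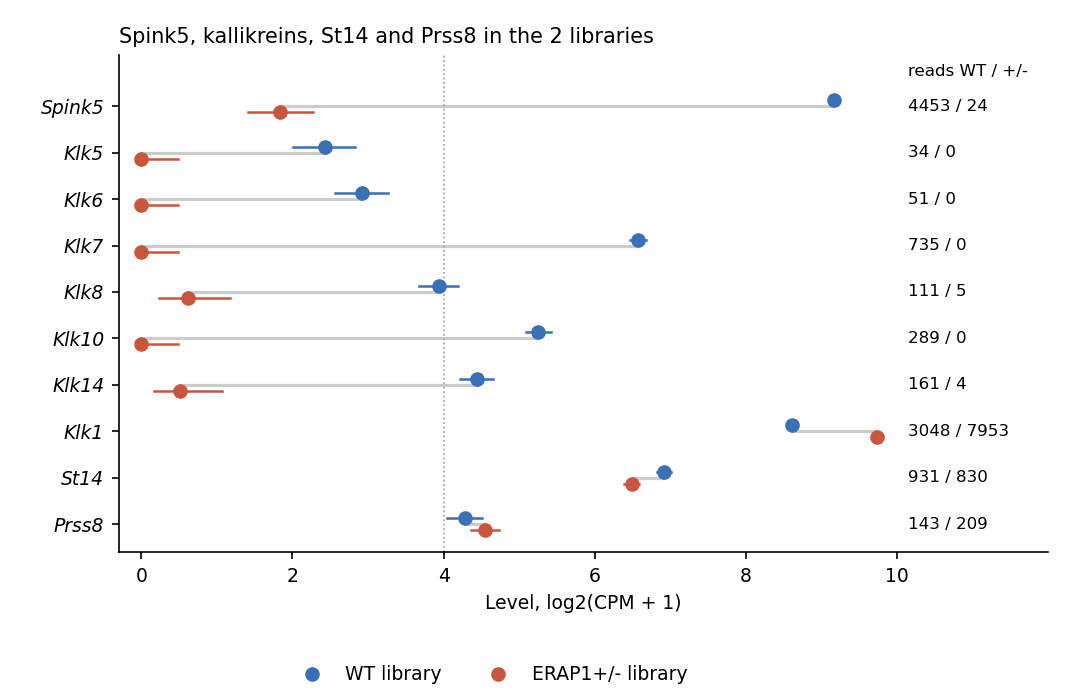
Level of the 10 genes in each library as log2(CPM + 1), with points for the WT library and for the library labelled ERAP1+/- and horizontal bars for exact 95% counting intervals. Spink5 drops from 573 to 2.58 CPM and Klk7 from 94.6 CPM to no read, Klk1 rises from 392 to 855 CPM, and the points of St14 and Prss8 lie close together.

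Spink5 had 4453 reads (573 CPM) in the WT library and 24 reads (2.58 CPM) in the library labelled ERAP1+/-. Its level in the latter was 222-fold lower (95% interval 149 to 347), a log2 difference of -7.33. It ranked 5 from the lowest difference among the 8013 genes. In bulk RNA, fewer cells of a type and less RNA per cell cannot be told apart. The gene spans chr18:43963235-44022501 on the plus strand in the GENCODE M21 annotation of GRCm38. Its longest transcript has 32 exons, and no annotated gene overlaps it.

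**Figure D2:**
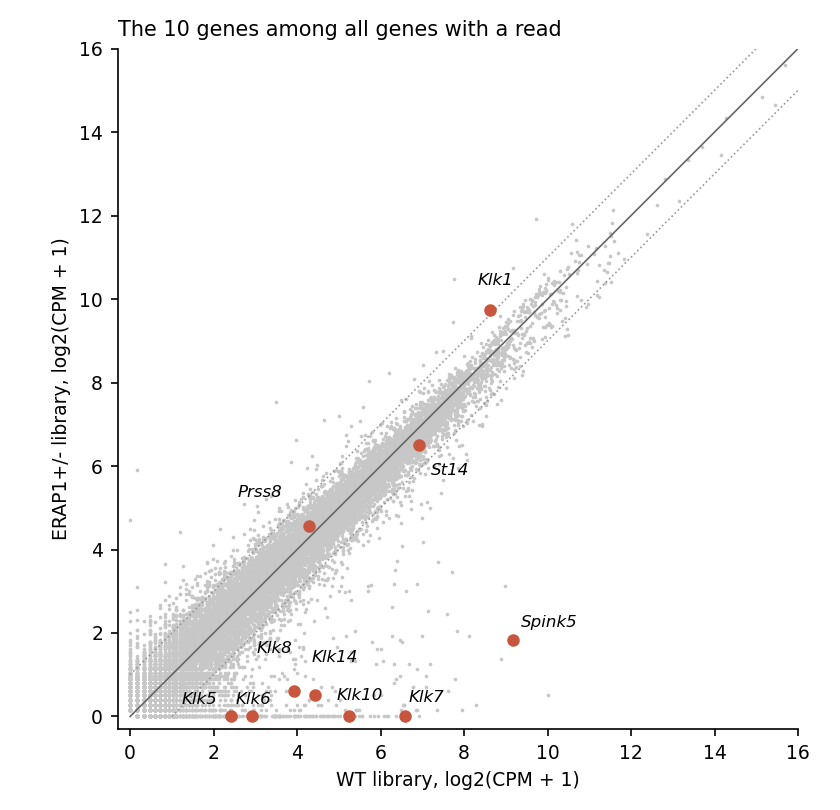
Level of every gene with a read in the library labelled ERAP1+/- (vertical axis) against the WT library (horizontal axis), both as log2(CPM + 1), with the 10 genes named and lines at equal levels and at 2-fold in each direction. Spink5, Klk7 and Klk10 lie near the bottom edge at 573, 94.6 and 37.2 CPM of the WT library, Klk1 lies above the upper 2-fold line, and St14 and Prss8 lie between the 2-fold lines.

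Among the secreted kallikreins, Klk5, a trypsin-like protease that starts the activation of others in the epidermis, had 34 reads (4.38 CPM) in WT and 0 in the library labelled ERAP1+/-. With the 0 set at 3 reads it was 13.6-fold lower, and the exact 95% limit was 10.4-fold. Klk7, a chymotrypsin-like protease that cuts corneodesmosin and desmocollin 1, had 735 reads (94.6 CPM) in WT and 0 in the library labelled ERAP1+/-. With the 0 set at 3 reads this is 293-fold lower, and the exact limit is 238-fold. These are the proteases held by LEKTI in skin, together with Klk14, which also cleaves desmoglein 1. Klk14 had 161 reads (20.7 CPM) in WT and 4 (0.430 CPM) in the library labelled ERAP1+/-, a level 48.2-fold lower (18.5 to 179) and a log2 difference of -3.92.

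The other secreted kallikreins of the set are less closely tied to shedding. Klk6, which is also abundant in the nervous system, had 51 reads (6.56 CPM) in WT and 0 in the library labelled ERAP1+/-, which is at least 20.4-fold lower. Klk10 had 289 reads (37.2 CPM) and 0, which is at least 115-fold lower with an exact limit of 93.2-fold. Klk8, called neuropsin in the brain and also present in the upper epidermis, had 111 reads (14.3 CPM) and 5 (0.537 CPM), a level 26.6-fold lower (11.1 to 83.5). Klk5, Klk6, Klk7 and Klk10 thus had no read in the library labelled ERAP1+/-, while Klk8 and Klk14 kept 9 reads between them. Because of the threshold on the level, Klk14 (20.7 CPM in WT) is the member just inside it and Klk8 (14.3 CPM in WT) the member just outside.

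Klk1 went in the opposite direction. It had 3048 reads (392 CPM) in WT and 7953 (855 CPM) in the library labelled ERAP1+/-. The ratio was 2.18 (95% interval 2.09 to 2.27), a log2 difference of 1.12, or 1.25 with scaling by the total count. By difference it ranked 73 from the highest of the 8013 genes. Part of its end sequence is shared: of the 50-base words in the last 400 bases of its longest transcript, 13.7% also occur in transcripts of 6 Klk1b genes. Reads were 75 bases long and can reach past such a word, so how many reads could not be assigned with certainty was not measured. For the other members these shares were 1.26% for Klk14 and 0 for the rest. The 13 Klk1b genes of the table, all below 10 reads, held 4 reads in WT and 14 in the library labelled ERAP1+/- together.

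The membrane-anchored proteases showed much smaller differences. St14 had 931 reads (120 CPM) in WT and 830 (89.2 CPM) in the library labelled ERAP1+/-, a ratio of 0.745 (0.677 to 0.819) and a log2 difference of -0.42. Prss8 had 143 reads (18.4 CPM) and 209 (22.5 CPM), and the interval of its ratio, 1.22 (0.982 to 1.52), includes 1. The interval of St14 lay below 1, with each read taken as independent. With scaling by the total count the log2 differences were -0.30 for St14 and 0.39 for Prss8. The spread between mice is not known for either gene. St14 lies on the minus strand of chr9:31089402-31131853 and Prss8 on the minus strand of chr7:127925716-127930104, far from the kallikreins. The Prss8 gene overlaps Kat8 on the opposite strand, which had 81 and 59 reads.

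The 7 kallikreins lie in the kallikrein cluster of chromosome 7, all on the plus strand, in the order Klk14 (chr7:43690418-43695536), Klk10 (chr7:43781035-43785410), Klk8 (chr7:43797577-43803826), Klk7 (chr7:43811294-43816359), Klk6 (chr7:43824499-43832030), Klk5 (chr7:43841971-43851181) and Klk1 (chr7:44225360-44229618). From the start of Klk14 to the end of Klk5, 161 kb hold 10 kallikrein genes, and Klk13, Klk12, Klk11 and Klk9 stand between Klk14 and Klk8. Of 15334 genes with at least 10 reads in 1 library, 908 (5.92%) were more than 2-fold lower in the library labelled ERAP1+/-. All 10 of these kallikreins were more than 2-fold lower there. Their log2 differences ran from -6.58 for Klk7 to -2.03 for Klk12, with a median of -3.62, and their reads summed to 1942 in WT and 10 in the library labelled ERAP1+/-, a summed level 232-fold lower. Of the 10, 5 passed the log2 level of 4, and 7 had no read in the library labelled ERAP1+/-.

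Klk13, Klk9, Klk11 and Klk12 belong to a list of other tissue kallikreins, chosen by symbol, of which 5 of 6 had at least 10 reads. Of these, 4 were more than 2-fold lower and none was higher, with a median log2 difference of -2.89, or -2.49 with counts of 0 at 3 reads. Of all 16142 genes with at least 10 reads over both libraries, 908 were more than 2-fold lower and 482 higher. These totals stand beside the counts of each list below. Klk13 had 324 reads in WT and 1 in the library labelled ERAP1+/-, a ratio of 0.00258 (6.51e-05 to 0.0145). Klk9, with 163 reads in WT and 0 in the library labelled ERAP1+/-, lay 65.0-fold below WT with the 0 set at 3 reads (exact limit 52.3-fold). Klk11 had 50 and 0 reads (exact limit 15.6-fold lower) and Klk12 had 24 and 0 (7.21-fold). The exception was Klk15, which begins 82.6 kb beyond the end of Klk5. It had 56 reads in WT and 55 in the library labelled ERAP1+/-, a ratio of 0.820 whose interval (0.555 to 1.21) includes 1. Klk4, between Klk5 and Klk15, had no read in either library.

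Klk1 lies 374 kb beyond the end of Klk5, at the far end of the cluster, and the whole stretch from Klk14 to Klk1 measures 539 kb. Genes next to the cluster did not share the large drop. On the side of Klk14, Ctu1 had 70 reads in WT and 114 in the library labelled ERAP1+/-, and Ceacam18 had 70 and 68. On the side of Klk1, 2410002F23Rik had 66 and 125 reads, a ratio of 1.58 (1.16 to 2.17). The antisense gene 2310002F09Rik, which overlaps Klk8, Klk10 and Klk14, had 1 and 0 reads, and Gm10109, opposite Klk1, had 0 and 2.

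**Figure D3:**
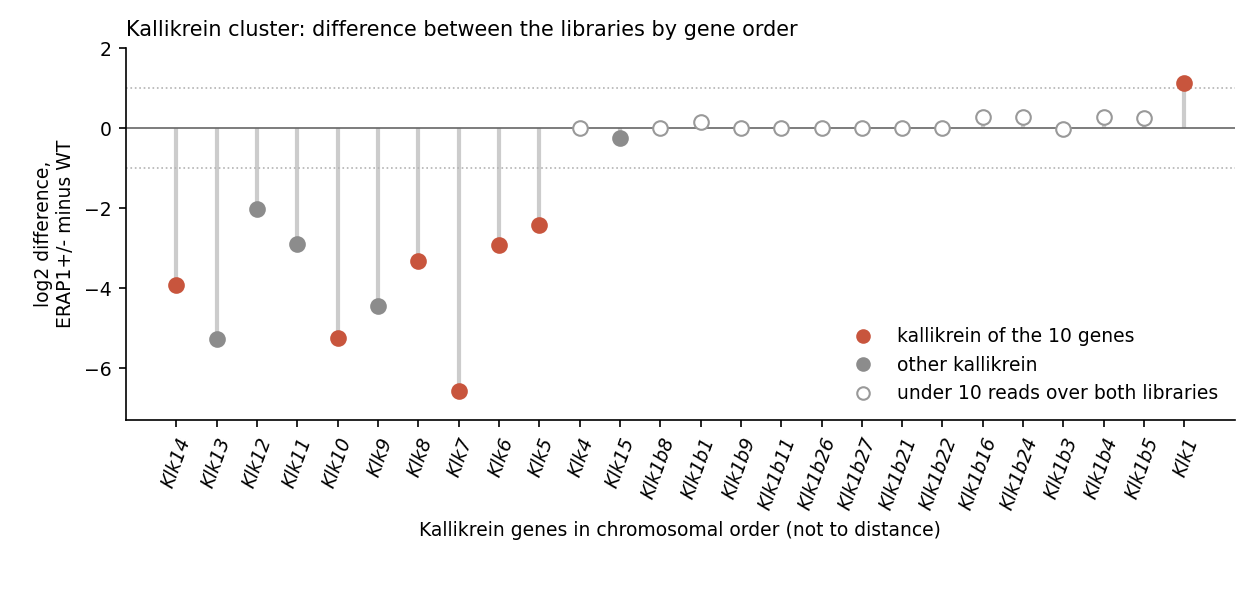
Log2 difference, library labelled ERAP1+/- minus WT, of the kallikrein genes in the order in which they lie on chromosome 7, equally spaced and not to distance. Filled points mark kallikreins of the 10 genes and other kallikreins, and open points mark genes below 10 reads. The 10 genes from Klk14 to Klk5 lie between -6.58 and -2.03, Klk15 lies at -0.25, and Klk1 lies at 1.12.

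The 250 bases before the start site are printed for 3 kallikreins that were lower in the library labelled ERAP1+/- (Klk8, Klk7 and Klk5) and for Klk15 and Klk1, which were not, so that the differing neighbours can be read side by side. They are RefSeq sequences of GRCm38.p6 from chr7:43797327-43797576, chr7:43811044-43811293, chr7:43842019-43842268, chr7:43931425-43931674 and chr7:44225110-44225359, all on the plus strand and 5′ to 3′. The start sites are the RefSeq ones and differ for Klk5 and Klk15 from the GENCODE M21 gene starts. The Klk5 window lies past its gene start at 43841971, and the Klk15 window ends before its gene start at 43933740. Capitals mark a GC box in Klk8 and Klk7 and a TATA box in Klk15.
Klk8: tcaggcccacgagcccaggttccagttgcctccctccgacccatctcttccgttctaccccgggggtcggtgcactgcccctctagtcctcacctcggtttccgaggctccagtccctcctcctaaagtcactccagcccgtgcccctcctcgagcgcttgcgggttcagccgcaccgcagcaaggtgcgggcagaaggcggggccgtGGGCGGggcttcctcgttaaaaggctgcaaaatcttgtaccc
Klk7: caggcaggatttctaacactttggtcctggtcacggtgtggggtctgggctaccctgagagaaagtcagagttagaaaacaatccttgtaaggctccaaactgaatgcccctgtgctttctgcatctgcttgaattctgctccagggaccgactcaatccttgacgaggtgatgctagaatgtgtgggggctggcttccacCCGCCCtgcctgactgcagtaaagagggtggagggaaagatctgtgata
Klk5: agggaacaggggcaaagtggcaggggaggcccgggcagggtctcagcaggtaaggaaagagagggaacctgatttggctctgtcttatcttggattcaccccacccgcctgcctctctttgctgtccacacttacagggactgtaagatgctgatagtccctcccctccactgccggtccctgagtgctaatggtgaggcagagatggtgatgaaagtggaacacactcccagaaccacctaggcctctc
Klk15: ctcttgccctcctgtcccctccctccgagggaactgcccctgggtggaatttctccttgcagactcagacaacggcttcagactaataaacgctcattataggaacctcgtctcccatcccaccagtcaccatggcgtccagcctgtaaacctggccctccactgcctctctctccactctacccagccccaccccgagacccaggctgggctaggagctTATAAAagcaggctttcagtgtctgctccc
Klk1: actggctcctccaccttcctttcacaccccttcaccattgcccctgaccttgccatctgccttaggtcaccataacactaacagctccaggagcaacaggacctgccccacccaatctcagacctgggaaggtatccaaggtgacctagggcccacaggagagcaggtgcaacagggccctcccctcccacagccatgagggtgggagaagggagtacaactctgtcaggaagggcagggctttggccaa

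Such windows were found for 13 of the 15 genes looked for, all of them kallikreins. Among the 10 genes these are the 7 kallikreins, windows of St14 and Prss8 were not found, and that of Spink5 was not used here. The letters searched, on both strands, were TGANTCA for AP-1 (the same on either strand, with N for any base), TATAAA for the TATA box and GGGCGG for the GC box. None of the kallikrein windows held the AP-1 letters, which occur in 6.75% of all 32851 windows of that length. The TATA letters occur in 12.4% of all windows and among the kallikreins stood only in that of Klk15, 30 bases before its RefSeq start site. The GC box letters occur in 32.7% of all windows and stood 42 bases before the start of Klk8, 49 bases before that of Klk7 and in both windows of Klk6. They were absent from the windows of Klk14, Klk13, Klk12, Klk11, Klk10, Klk9 and Klk5, which were also lower. Those of Klk4, Klk15 and Klk1 held none either. A match is a description of the letters and not a site of binding.

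The share of kallikrein reads by gene differed between the libraries. Over the 26 kallikrein genes, WT had 5050 reads and the library labelled ERAP1+/- 8032. Klk1 held 60.4% of them (59.0% to 61.7%) in WT and 99.0% (98.8% to 99.2%) in the library labelled ERAP1+/-. The 10 genes from Klk14 to Klk5 held 38.5% (37.1% to 39.8%) in WT and 0.125% (0.0597% to 0.229%) in the library labelled ERAP1+/-, and Klk7 alone held 14.6% of the WT reads. Klk15 held 1.11% and 0.685%. These are shares of reads and not of transcripts.

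**Figure D4:**
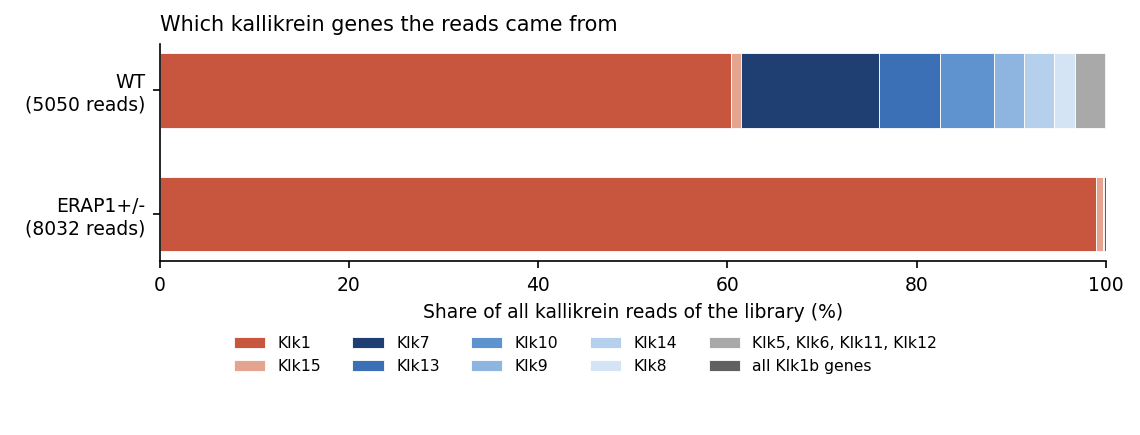
Share of all kallikrein reads of each library by gene, in percent, with the WT library above and the library labelled ERAP1+/- below and 1 colour per gene or gene group. Klk1 takes 60.4% of the 5050 WT reads and 99.0% of the 8032 reads of the library labelled ERAP1+/-.

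Genes with levels most like those of Spink5 were found by the distance between log2(CPM + 1) values over the 2 libraries, which is a description of 2 points per gene. The nearest was Krtdap, a gene of differentiating keratinocytes, with 3681 reads in WT and 15 in the library labelled ERAP1+/- (distance 0.531). It was followed by Ttn, the giant spring protein of striated muscle (2154 and 26 reads), Krt10, a keratin of the suprabasal epidermis (3922 and 72), Dapl1 (1769 and 29) and Flg (7952 and 4). The genes nearest to Klk1 were Spink4, an inhibitor of goblet cells (3612 and 7197 reads, distance 0.284), Hsp90b1, a chaperone of the endoplasmic reticulum (3540 and 6000), Rpl35, Sval1 and Wfdc2.

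Markers of other cell types moved with Spink5 and the 10 neighbouring kallikreins from Klk14 to Klk5. Of 12 keratinocyte markers, 11 had at least 10 reads and all 11 were more than 2-fold lower in the library labelled ERAP1+/-, with a median log2 difference of -4.35 (-3.95 with counts of 0 at 3 reads) and a summed level of 2614 CPM in WT and 37.3 CPM in the library labelled ERAP1+/-. Besides Flg and Krtdap, Lor had 1528 and 5 reads and Krt1 had 1049 and 6, and the basal regulator Trp63 had 23 and 0. The basal keratins Krt5 (418 and 73 reads) and Krt14 (623 and 97), named after their values were seen, differed less. They were 6.9-fold and 7.7-fold lower, beside 366-fold for Lor. Sbsn (908 and 75 reads) and Dsc3 (60 and 0) were also named after their values were seen. Sbsn was 14.5-fold lower, and Dsc3 had an exact limit of 18.9-fold. Krt2 was at 0 in both libraries. Of 8 skeletal muscle markers, 7 were more than 2-fold lower on the log2(CPM + 1) scale, with a median of -4.98 (-4.78 with counts of 0 at 3 reads) and 5430 reads in WT and 159 in the library labelled ERAP1+/- in all. The other was Myh4, with 9 and 2 reads and a ratio without the added 1 of 0.186 (0.0195 to 0.897). The part of keratinocytes or muscle in the result was not tested. Of the 12 colon epithelium markers, 10 lay within 2-fold (median -0.34). Krt20, of the surface epithelium, was lower with 5156 and 2674 reads, and Muc2, the goblet cell mucin, was higher with 12020 and 32939 reads (log2 difference 1.19, beside 1.12 for Klk1). Klk1 is also abundant in salivary gland and pancreas. Of 8 salivary gland markers 3 had at least 10 reads (median -0.23), with Bpifa2, Smr3a, Prol1 and Mucl2 at 0 in both libraries, and of 10 exocrine pancreas markers only Cela1 had that many (1889 and 2379 reads).

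Of the inhibitors related to LEKTI, 3 of the 4 with enough reads lay within 2-fold of WT. The list held 11 other Spink genes, and the 4 with at least 10 reads had a median log2 difference of -0.02. Spink1, the trypsin inhibitor of pancreas and gut, had 17882 reads in WT and 22121 in the library labelled ERAP1+/-, and Spink4 lay at 0.73 and Spink10 at -0.09 on the log2 scale. The 1 gene of this list that was more than 2-fold lower was Spink12 (38 and 0 reads), named here after its values were seen. Of 10 inhibitors of the Kunitz, WAP and cystatin families, 8 had at least 10 reads and 4 of these were more than 2-fold lower, with a median of -1.21. Spint1, the inhibitor of matriptase and prostasin, had 1251 and 1187 reads (log2 difference -0.33), and its relative Spint2 had 780 and 1024 (0.13). Cst6, an inhibitor of cathepsins in the epidermis, had 848 and 6 reads, a level 169-fold lower (77.4 to 462). Slpi, an inhibitor of neutrophil elastase in mucosal fluids, had 1340 and 370 reads, a level 4.34-fold lower (3.86 to 4.88). The remaining pair, Wfdc5 (59 and 0 reads) and Wfdc12 (33 and 1), was named after its values were seen.

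Among 15 other membrane-anchored serine proteases, 12 had at least 10 reads, 6 were more than 2-fold lower and none was more than 2-fold higher on the log2(CPM + 1) scale, with a median log2 difference of -0.95. Hpn, named after its values were seen, had 9 and 28 reads, a log2 difference of 0.89 and a ratio without the added 1 of 2.60 (1.19 to 6.26). The 3 with most reads lay within 2-fold: Tmprss2 had 8549 and 6069 reads (log2 difference -0.75), Prss32 had 3153 and 2687 (-0.49) and Tmprss4 had 695 and 723 (-0.20). The 6 lower genes all had fewer than 100 WT reads, and those named after their values were seen were Tmprss11a (78 and 5 reads), Tmprss11d (50 and 5) and Prss27 (72 and 19). Of 10 other proteases of the epidermis, 9 had at least 10 reads and 2 were more than 2-fold lower, with a median of -0.38. Asprv1, the skin aspartic protease that processes filaggrin, had 783 and 13 reads, a level 72.1-fold lower (41.9 to 136). Casp14, the caspase of cornifying keratinocytes, had 633 and 253 reads, a ratio of 0.334 (0.287 to 0.387). The lysosomal cathepsin genes Ctsd, Ctsl and Ctsc lay at -0.57, -0.57 and 0.13 on the log2 scale.

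Of 13 genes of proteins that these proteases cleave, 11 had at least 10 reads, and 6 of these were more than 2-fold lower and none was more than 2-fold higher, with a median log2 difference of -2.28 (-1.88 with counts of 0 at 3 reads). Flg, which encodes filaggrin, lay at -9.48 on the log2 scale and Flg2 had 357 reads in WT and 0 in the library labelled ERAP1+/-. Among the bridges cut in desquamation, the desmosomal cadherin genes Dsc1 and Dsg1b had 220 and 117 reads in WT and 0 in the library labelled ERAP1+/-. Dsg1a (30 and 0 reads) and Cdsn, which encodes corneodesmosin (296 and 14), were named after their values were seen. The 3 with most reads among the other genes of the list lay within 2-fold: Epcam, an adhesion protein cleaved by matriptase, had 9812 and 9413 reads (log2 difference -0.32), the sodium channel subunit Scnn1a had 638 and 422 (-0.84), and the protease-activated receptor gene F2rl1 had 382 and 332 (-0.45).

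**Figure D5:**
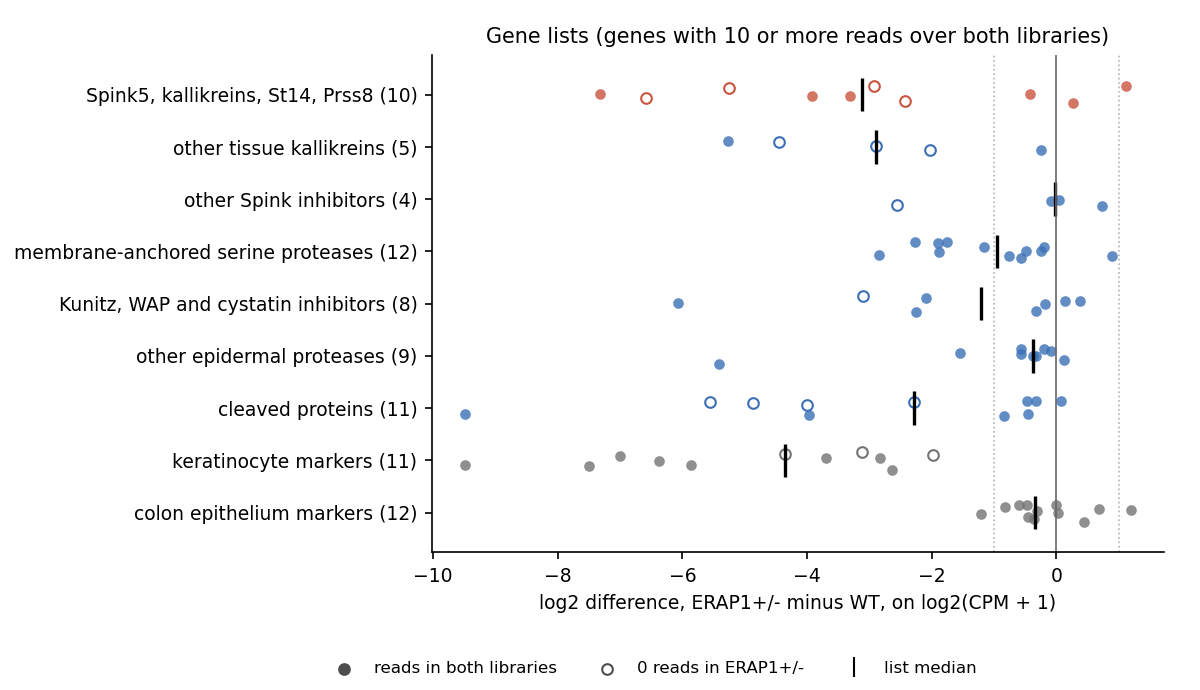
Log2 difference, library labelled ERAP1+/- minus WT, of each gene with at least 10 reads over both libraries in the lists shown, 1 point per gene and 1 line of points per list, with the number of genes in brackets. The lists of skeletal muscle, salivary gland, exocrine pancreas and Klk1b genes are not drawn. Open points had 0 reads in the library labelled ERAP1+/-, vertical marks are list medians, and these run from -4.35 for keratinocyte markers to -0.34 for colon epithelium markers and -0.02 for other Spink inhibitors.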

How the data were processed

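Total RNA of mouse intestine was made into 3′-end libraries (QuantSeq FWD), 1 per genotype from 3 pooled mice. The files the authors deposited hold raw counts of reads for each gene symbol. The methods describe STAR with HTSeq-count and, elsewhere, Bowtie2 with RSEM on GENCODE GRCm38, and the submitters' processing notes name Bowtie2, RSEM and GRCm38. Which of these made the counts is not stated.

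From the deposited counts, TMM factors (0.958 for WT, 1.04 for ERAP1+/-) came from edgeR 4.0.16 (R 4.3.3), and the adjusted totals gave CPM and log2(CPM + 1). The pseudocount of 1 understates differences of genes with few reads. Mitochondrial and ribosomal RNA took 18.0% of WT and 16.7% of ERAP1+/- reads. Genes past 2-fold had a log2 level of at least 4 in 1 or both libraries, or, where stated, at least 10 reads. A quasi-likelihood test could not be fitted with 1 library per genotype. Ratios carry exact conditional binomial intervals and shares exact Clopper-Pearson intervals (scipy 1.17.1). The CPM, the 2-fold calls and the ratio intervals were tested on simulated counts with independent reads and fixed library sizes. That simulation held no PCR copies and no variation between mice, and did not cover the TMM factors or the share intervals.

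The 10 genes and the 13 gene lists were chosen with earlier results of these data known. Named by rule were all 10 genes, the 5 genes nearest to Spink5 and to Klk1, and Erap1. From each list came at most the 4 largest differences past 2-fold at the level of 4 and at most 3 others with most reads. Genes named outside this rule include the sex-linked genes, genes beside or overlapping the 10 genes, and those marked as named after their values were seen. Positions came from GENCODE M21 (29035 symbols matched) and sequences before start sites from RefSeq on GRCm38.p6. Alternatives were DESeq2 1.42.0 size factors, total count scaling, a pseudocount of 0.1, totals without mitochondrial and ribosomal RNA, other filters and a 4-fold threshold. The study's RT-qPCR, cytometry and tissue scores were not used here. Its RT-qPCR, run on spleen RNA, included Spink5, for which the study reports no significant difference between its groups.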

Additional observations from a re-analysis of the deposited data

How the results depend on the processing

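In 23 results recomputed under the alternatives, no difference past 2-fold changed direction. This could hardly have come out otherwise, so nothing is read from it. A pseudocount or a filter keeps the sign of a gene, and the scalings shifted values by less than 2-fold. The median of other Spink inhibitors, -0.02, went to 0.10 with scaling by the total count and to 0 without a minimum of reads. Genes past 2-fold numbered 428 at the log2 level of 4, 1434 with no filter (482 higher, 952 lower), 1390 with at least 10 reads in 1 library (482 and 908) and 160 past 4-fold (16 and 144). The count among the 10 genes went from 5 to 8 with no filter and to 8 with at least 10 reads. Scaling by the total count, which shifted the median of all genes by 0.12 on the log2 scale, moved Klk1 to 1.25 and the colon epithelium median to -0.21. With a pseudocount of 0.1, the log2 differences were -8.54 for Klk10, -5.30 for Klk14, -5.48 for Klk5, -6.06 for Klk6, -9.89 for Klk7 and -4.50 for Klk8. The list medians with that pseudocount were -5.39 for the 10 genes, -6.03 for other tissue kallikreins, -1.49 for membrane-anchored proteases, -4.57 for cleaved proteins, -6.29 for keratinocyte markers and -5.96 for skeletal muscle markers. A smaller pseudocount widens the differences of genes with few reads by its construction. With totals that leave out mitochondrial and ribosomal RNA, Klk10 lay at -5.52, Klk5 at -2.65, Klk6 at -3.16 and Klk7 at -6.85. Without a minimum of reads, the medians were -0.26 for Kunitz, WAP and cystatin inhibitors and -0.84 for cleaved proteins, because genes with few or no reads enter.

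No paired analysis was possible because a single library stands for each genotype, and leaving out a library was not possible for the same reason. Sampling depth limits Klk5, Klk6, Klk7 and Klk10, whose counts of 0 give a bound and not a fold. Variation between mice was not measured.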

Other observations

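Ratios of read counts within a library, chosen after the values were seen and given as a description, set the 10 genes against their neighbours in role. For every 100 reads of the 10 neighbouring kallikreins from Klk14 to Klk5, which include Klk9, Klk11, Klk12 and Klk13, there were 229 of Spink5 in WT (95% interval 217 to 242) and 240 in the library labelled ERAP1+/- (111 to 562), where the latter rests on 24 and 10 reads. For every 100 reads of Krt10 there were 114 of Spink5 in WT (109 to 119) and 33.3 in the library labelled ERAP1+/- (20.1 to 53.6). For every 100 reads of Krt14, a keratin of basal cells, there were 715 of Spink5 (657 to 779) and 24.7 (15.1 to 39.0). Klk7 had 18.7 reads per 100 of Krt10 in WT (17.3 to 20.3) and none in the library labelled ERAP1+/-, where the exact upper limit is 5.26. Klk8 had 2.83 (2.32 to 3.42) and 6.94 (2.19 to 17.0) per 100 of Krt10, where the latter rests on 5 reads of Klk8. Per 100 of Krt14 it had 17.8 (14.4 to 21.8) and 5.15 (1.64 to 12.4), the opposite direction. All these intervals hold counting error only, in 1 library per genotype, and whether they overlap is not read as a test.

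Klk1 had 25.4 reads per 100 of the goblet cell mucin Muc2 in WT (24.4 to 26.4) and 24.1 in the library labelled ERAP1+/- (23.6 to 24.7). Per 100 of Spink4, also a goblet cell gene, it had 84.4 (80.4 to 88.6) and 111 (107 to 114). Klk15 had 1.84 reads per 100 of Klk1 (1.38 to 2.39) and 0.692 (0.521 to 0.901). Prss8 had 15.4 reads per 100 of St14 in WT (12.8 to 18.3) and 25.2 in the library labelled ERAP1+/- (21.5 to 29.3), and St14 had 74.4 (68.3 to 81.1) and 69.9 (63.9 to 76.5) per 100 of its inhibitor gene Spint1.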
